A study of Mus musculus with 18 samples.

Results

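Matrix metalloproteinases (MMPs) are zinc-dependent enzymes that cut collagens, laminins, proteoglycans and many cell-surface and signalling proteins. Most are secreted as inactive proenzymes, which other proteases activate by removing a propeptide. Tissue inhibitors of metalloproteinases (Timps) bind the active site of MMPs and block it. In the brain, MMPs act on the basement membrane of vessels and on the perineuronal matrix, and MMPs from tumour cells, glia and invading leukocytes are studied in metastasis for that reason. The set described here was named gene by gene and not chosen by a threshold: 7 MMPs (Mmp1a, Mmp2, Mmp3, Mmp9, Mmp12, Mmp13 and Mmp14) and 3 inhibitors (Timp1, Timp2 and Timp3), 10 of the 55416 genes in the count table. All 10 were matched by symbol.

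RNA came from the tissue around brain tumours, the peritumoral area, of 18 wild-type (WT) mouse brains, 6 for each of 3 tumour models. The melanoma group received B16-F10-BrM4 cells (libraries 1 to 6), the lung cancer group 482N1 cells (libraries 7 to 11 and 13) and the breast cancer group EO771_BrM3 cells (libraries 14 to 19). In each group 40000 cells were injected and the tissue was taken 10 days later. Each model is 1 cell line, no tumour-free brain is among the groups, and the labels used here give no mouse strain, age or sex. They say no more on how the 6 brains of a model were handled, so p-values measure the spread between these brains. Libraries held 7366250 to 14533877 reads. Breast libraries 18 and 19 were the shallowest, with 7366250 and 7432159 reads, and every other library held at least 10669355. Levels are given as CPM, reads scaled to a common library size with TMM factors, 3 reads being 0.203 to 0.419 CPM.

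The labelled brain tissue was checked on marker genes: markers of neurons, oligodendrocytes and astrocytes were read in every library. Tumour-lineage markers were read as well. The 8 melanocyte markers summed to 3822 to 23485 CPM in the melanoma libraries, 43.6 to 57.5 CPM in lung and 38.2 to 75.3 CPM in breast. The 9 epithelial markers summed to 5.09 to 5.86 CPM in melanoma, 309.6 to 1318 CPM in lung and 66.8 to 168 CPM in breast, with Cldn4 at 0 reads in all melanoma and breast libraries. Of the 5 epithelial markers tested, 2 (Krt8 and Epcam) were called lower in melanoma than in breast, as were 19.2% of all genes. The other 3 were not called. The samples are bulk tissue, so more cells of a type and more RNA per cell cannot be told apart. Libraries 3, 18 and 19 were poorer in long transcripts than the other 15, with slopes of log2 CPM against transcript length of -0.192, -0.232 and -0.188 per doubling, against -0.107 to 0.162.

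Mmp13, Mmp12, Mmp3 and Mmp1a lie within the MMP gene cluster of chromosome 9, and the sequences around their start sites share short elements not found in the windows of Mmp14 and the Timps. The printed stretches run from 130 bases before to 20 bases from the start of transcription and are shown because the cluster holds the genes with the widest differences between models. They are RefSeq sequence on GRCm38.p6, an earlier build than that of the deposited counts, and 8 of the 10 genes have such a window (Mmp2 and Mmp9 do not). Capitals mark the AP-1 element TGANTCA, the TATA element TATAAA and the GC box GGGCGG or its reverse complement CCGCCC.
Mmp13 (chr9:7272384-7272533, plus strand): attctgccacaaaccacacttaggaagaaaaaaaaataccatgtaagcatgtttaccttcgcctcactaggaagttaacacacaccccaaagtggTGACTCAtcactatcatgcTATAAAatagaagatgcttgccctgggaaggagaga
Mmp12 (chr9:7347244-7347393, plus strand): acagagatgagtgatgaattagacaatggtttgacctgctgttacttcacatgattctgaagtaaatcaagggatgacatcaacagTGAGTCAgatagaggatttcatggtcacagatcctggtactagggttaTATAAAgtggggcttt
Mmp3 (chr9:7445692-7445841, plus strand): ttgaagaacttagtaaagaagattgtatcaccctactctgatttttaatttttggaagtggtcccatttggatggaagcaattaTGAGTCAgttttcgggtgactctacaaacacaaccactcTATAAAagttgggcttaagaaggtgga
Mmp1a (chr9:7464011-7464160, plus strand): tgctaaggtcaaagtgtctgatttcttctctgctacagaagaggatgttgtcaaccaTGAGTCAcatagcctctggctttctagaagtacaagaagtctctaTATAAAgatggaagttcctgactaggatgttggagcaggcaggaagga
Mmp14 (chr14:54431468-54431617, plus strand): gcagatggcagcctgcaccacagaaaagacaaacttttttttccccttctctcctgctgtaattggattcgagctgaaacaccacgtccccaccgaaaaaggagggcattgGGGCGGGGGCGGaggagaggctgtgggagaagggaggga
Timp1 (chrX:20870036-20870185, plus strand): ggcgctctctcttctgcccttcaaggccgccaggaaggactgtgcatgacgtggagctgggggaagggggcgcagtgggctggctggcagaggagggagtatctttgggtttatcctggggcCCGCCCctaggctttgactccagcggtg
Timp2 (chr11:118355392-118355541, minus strand): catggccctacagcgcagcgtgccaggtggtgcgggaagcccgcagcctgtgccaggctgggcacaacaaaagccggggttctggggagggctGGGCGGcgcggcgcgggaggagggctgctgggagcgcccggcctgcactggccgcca
Timp3 (chr10:86300282-86300431, plus strand): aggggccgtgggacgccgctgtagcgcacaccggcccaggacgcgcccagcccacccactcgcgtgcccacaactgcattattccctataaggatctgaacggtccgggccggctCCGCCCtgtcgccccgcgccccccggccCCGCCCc
The 4 cluster genes each hold a TGANTCA at -35 (Mmp13), -44 (Mmp12), -46 (Mmp3) and -73 (Mmp1a) from the start, and a TATAAA after it at -16 (Mmp13), -7 (Mmp3), -28 (Mmp1a) and, in Mmp12, at 4, past the start. Mmp12 has a second window in the table, upstream of the printed one, with neither element. Mmp14, Timp1, Timp2 and Timp3 hold at least 1 GC box and neither TGANTCA nor TATAAA. Both strands of all 32851 windows of 300 bases in the table were searched with the same letters. TGANTCA was in 7.81% of them, TATAAA in 13.6%, both in 1.54% and GGGCGG in 35.7%. The ETS element AGGAAG was in 35.4% of all windows and in those of Mmp13, Mmp3, Mmp1a, Mmp14, Timp1 and Timp3, and in the upstream window of Mmp12. A match describes the letters and was not tested as a binding site.

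In the tissue around breast model tumours, Mmp1a, Mmp3 and Mmp14 were higher than around the others. Around lung model tumours Timp1, Timp2 and Timp3 were higher, and around melanomas Mmp9, Mmp12 and Mmp13 were lower than in both other models. Differences between models were tested with edgeR's quasi-likelihood method over 17174 genes with Benjamini-Hochberg adjustment, and a gene was called at an adjusted p under 0.05. A log2 fold change is that of the model named first over the model named last, with its standard error (SE), from 6 libraries a model. In melanoma against lung, 7 of the 10 genes were called, all lower in melanoma, where 23.2% of all genes were called, 14.7% lower and 8.51% higher. In breast against lung, 7 were called (18.3% of all genes): Mmp1a, Mmp3 and Mmp14 were higher in breast (11.2% of all genes) and Mmp13, Timp1, Timp2 and Timp3 were lower (7.16%). In melanoma against breast, 8 were called (28.9% of all genes), all lower in melanoma (19.2%, against 9.76% higher), and Timp2 and Timp3 were not called. All 10 were called in the test of any difference among the models, as were 35.8% of all genes. Timp1, Timp2 and Timp3 were called higher in lung than in both other models (4.2% of all genes), Mmp1a, Mmp3 and Mmp14 higher in breast than in both others (7.79%), and none was called higher in melanoma than in both others (4.88%). The libraries of the models did not overlap for 7, 6 and 7 of the 10 genes in the 3 comparisons, against 14.3%, 14.9% and 17.1% of all genes. Without Mmp1a, the median log2 fold change of the other 9 was -1.93, -0.93 and -1.47 in these comparisons, against 0.02, -0.02 and 0.04 over all genes. These counts are a description: Mmp1a had 10 or more reads in breast libraries only, Mmp13 in no melanoma library, Mmp12 in 2 and Mmp3 in 3 of the 6 melanoma libraries, so that they passed the count filter through the models where they were high. The p-values given below for Mmp3, Mmp12 and Mmp13 carry the same limit. All 10 genes were also chosen with earlier results of these data known. The comparisons also share libraries in pairs.

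**Figure D1:**
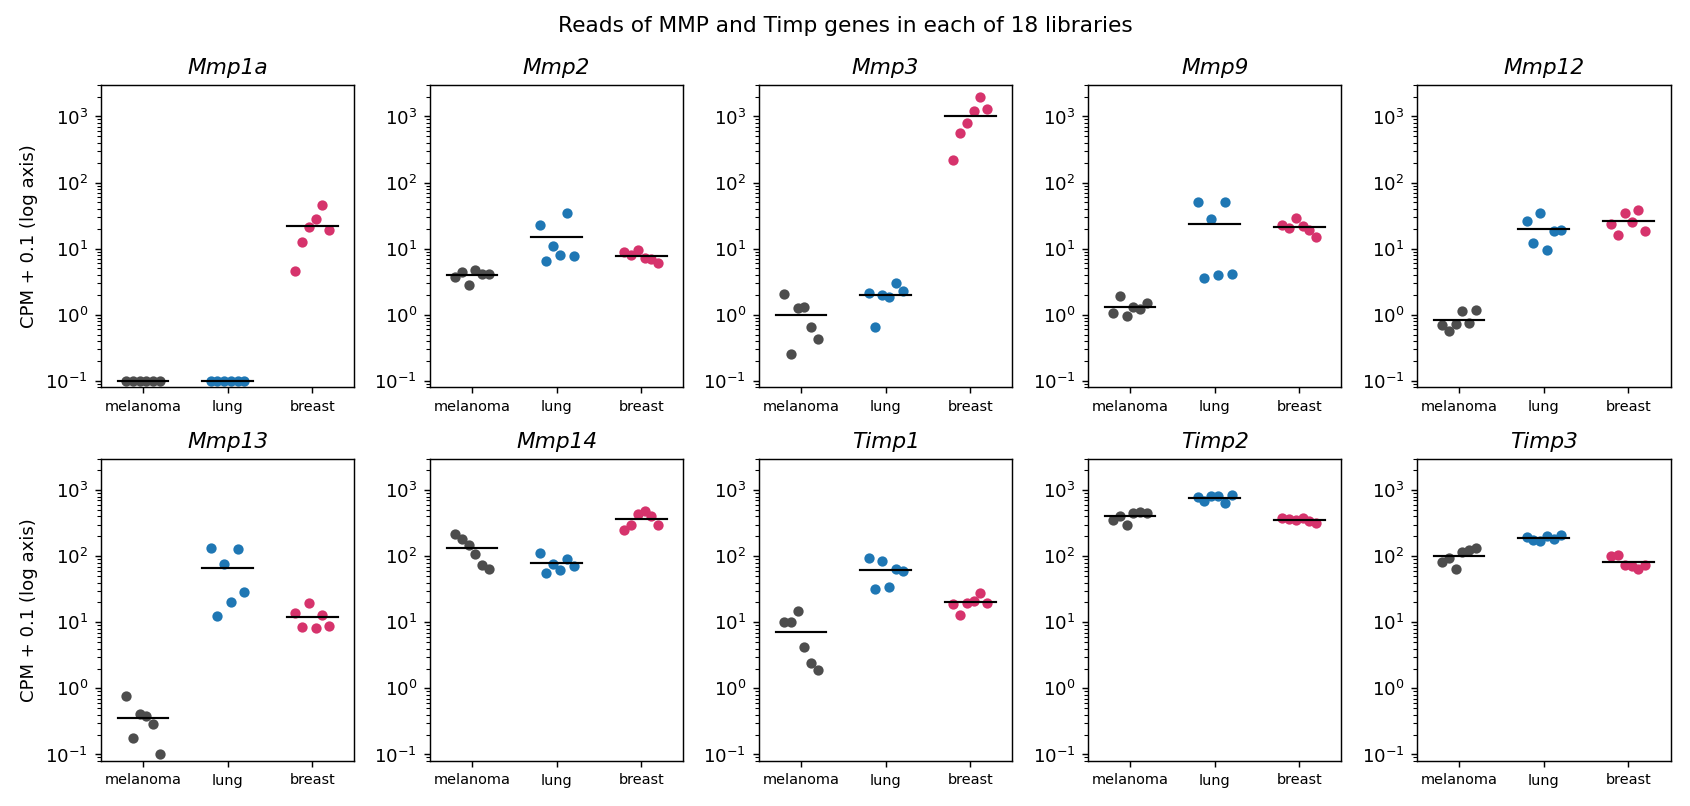
Level of each gene in each library, in CPM plus 0.1 on a log axis; points are libraries and bars are means of 6. Mmp1a and Mmp3 stand high in breast, Mmp9, Mmp12 and Mmp13 are lowest in melanoma, and Timp1, Timp2 and Timp3 have their highest means in lung.

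**Figure D2:**
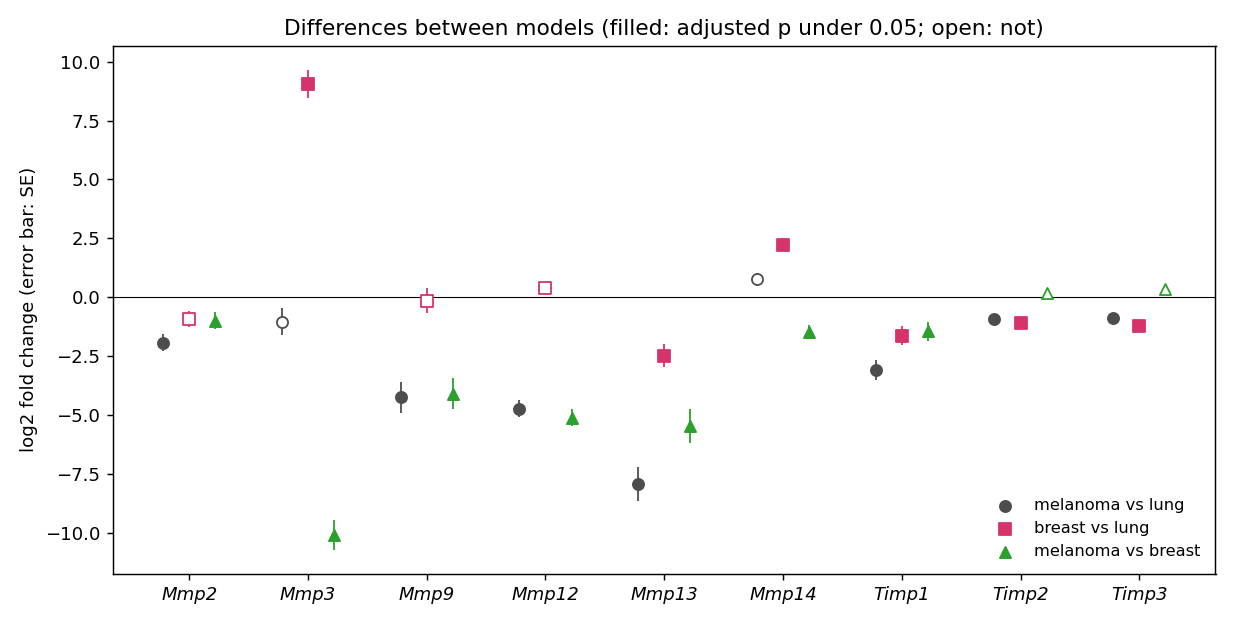
Log2 fold change (vertical axis, bars are SE) of the 9 genes read in all 3 models, for each pair of models; filled symbols passed an adjusted p under 0.05. Mmp1a is left out because it had no read in melanoma and lung. Mmp3 spans the widest range, from -10.09 to 9.05, and Timp2 and Timp3 stay within -1.21 to 0.33.

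Interstitial collagenases cut native fibrillar collagen, and 2 of the set belong to them: Mmp1a, the mouse counterpart of human MMP1, and Mmp13. Mmp1a was a breast model transcript. It had no read in any of the 12 melanoma and lung libraries and 4.41 to 45.4 CPM (median 20.2) in the 6 breast libraries, 1325 reads in all. With a floor of 3 counts over a model, and reads assigned as in the count table, its level in breast was at least 483-fold higher than in melanoma and at least 515-fold higher than in lung. Its paralog Mmp1b is close in sequence, and if the 7 reads of Mmp1b in melanoma were all Mmp1a, the fold over melanoma would be 207. Mmp1a passed the count filter through the breast libraries alone, so no fold change or p-value from its test is printed. Its calls are part of the counts given above, where they are a description only. Within the breast model, Mmp1a was lowest in library 14 and highest in library 18.

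Mmp13 (collagenase-3) had the opposite rank of lung and breast. Its levels were 12.2 to 132 CPM (median 53.0) in lung, 8.12 to 19.3 CPM (median 10.7) in breast and 0 to 0.662 CPM (median 0.232) in melanoma, where it had 19 reads in all. The melanoma libraries lay below every lung and breast library, whereas lung and breast overlapped. The log2 fold change was -7.94 ± 0.74 (adjusted p = 1.17e-07) for melanoma over lung, -5.46 ± 0.73 (adjusted p = 8.10e-06) for melanoma over breast and -2.48 ± 0.51 (adjusted p = 0.00148) for breast over lung. The lung libraries were spread over 1 order of magnitude: Mmp13 was 132, 127 and 77.4 CPM in libraries 7, 11 and 9, and 28.5, 19.9 and 12.2 CPM in libraries 13, 10 and 8. The lowest of these, library 8, lay below breast libraries 14, 16 and 18.

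Mmp3, stromelysin-1, cuts proteoglycans, laminin and fibronectin and activates other pro-MMPs, among them pro-MMP1 and pro-MMP9. It had the highest mean level per kilobase of the set in the breast model and was under 3 CPM in every library of the other models. In breast it was 222, 563.5, 809, 1199.9, 1939 and 1288 CPM in libraries 14 to 19, a mean of 1004 ± 606 CPM (SD, n = 6). The melanoma libraries held 0.156 to 1.99 CPM (median 0.866) and the lung libraries 0.545 to 2.90 CPM (median 1.95), 67 and 146 reads in all against 59678 in breast. Every breast library was above every other library. The log2 fold change was 9.05 ± 0.60 (adjusted p = 2.01e-09) for breast over lung and -10.09 ± 0.64 (adjusted p = 8.44e-10) for melanoma over breast, while melanoma and lung overlapped and did not pass the test (-1.04 ± 0.58, adjusted p = 0.240). In breast library 14 both Mmp3 and Mmp1a were lowest, and in library 18 both were highest. Among the epithelial markers, Krt18, Krt19, Cdh1 and Epcam had breast means of 2.13, 0.120, 2.75 and 1.56 CPM, and Cldn4 had no read. These added little to the epithelial sum in breast, which therefore does not stand for all of its markers. That sum, like Mmp3 and Mmp1a, was lowest in library 14 and highest in 18, at 66.8, 71.9, 107, 125, 168 and 108 CPM in libraries 14 to 19. The slopes against transcript length were highest in 14 and lowest in 18, at 0.0542, 0.0212, 0.0243, -0.0149, -0.232 and -0.188 in the same order. Without libraries 3, 18 and 19, the log2 fold change of Mmp3 was 8.47 for breast over lung and -9.59 for melanoma over breast (adjusted p = 9.72e-09 and 1.28e-08). The part of tumour RNA or RNA quality in the spread of Mmp3 and Mmp1a within the breast model was not tested.

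Mmp12, the macrophage elastase, cuts elastin and is known from alveolar and inflammatory macrophages. Its level was low in melanoma and alike in order of magnitude in the other models: 0.468 to 1.07 CPM (median 0.638) in melanoma, 9.46 to 34.2 CPM (median 18.8) in lung and 16.02 to 38.3 CPM (median 24.2) in breast. No melanoma library reached the lowest lung or breast library. Melanoma was lower than lung, with a log2 fold change of -4.75 ± 0.36 (adjusted p = 6.95e-09), and lower than breast, with -5.12 ± 0.36 (adjusted p = 3.21e-09). Breast and lung overlapped, with a log2 fold change of 0.38 ± 0.28 that did not pass (adjusted p = 0.400).

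Markers of leukocytes and microglia also differed between the models. The 10 monocyte and macrophage markers summed to 42.02 to 224 CPM in melanoma, 422 to 1169 CPM in lung and 544 to 899 CPM in breast. Of these 10, 9 were lower in melanoma than in lung (14.7% of all genes), and 9 lower than in breast (19.2%). The 8 microglia markers summed to 286 to 386, 758 to 1119 and 786 to 1008 CPM. For the 9 neutrophil markers, with Mmp8 among them, the sums were 4.47 to 8.67, 26.1 to 216 and 99.7 to 292 CPM. Between breast and lung, 2 of the 7 neutrophil markers tested were higher in breast (Ly6g and Mmp8) and 5 were not called. Of all genes, 11.2% were higher in breast there. Ly6g was 2.02 ± 0.770 CPM in breast and 0.0259 ± 0.0401 CPM in lung, whereas Cxcr2, the chemokine receptor of neutrophils, was 13.4 ± 3.79 CPM and 7.34 ± 9.16 CPM (adjusted p = 0.330). The part of these cells in the levels of Mmp9, Mmp12 and Mmp13 was not tested.

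The gelatinases Mmp2 and Mmp9 cut denatured collagen and the type IV collagen of basement membranes. Mmp9, stored in neutrophil granules and made by activated macrophages, was lowest in melanoma at 0.862 to 1.79 CPM (median 1.16), with no overlap with either other model. Breast held 15.01 to 28.4 CPM (median 20.8) and lung 3.50 to 50.9 CPM (median 15.9). The log2 fold change was -4.25 ± 0.66 (adjusted p = 6.25e-05) for melanoma over lung and -4.10 ± 0.66 (adjusted p = 7.43e-05) for melanoma over breast. Lung split into libraries 7, 11 and 9 with 50.9, 50.7 and 27.7 CPM and libraries 13, 10 and 8 with 4.09, 3.90 and 3.50 CPM. The 6 breast libraries lay between these, apart from library 16 at 28.4 CPM, which was above lung library 9. Breast over lung was -0.15 ± 0.54 (adjusted p = 0.889), a difference smaller than its error, and the sign turned without lung library 7 (0.23) or 11 (0.20).

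Mmp2, made mainly by mesenchymal and glial cells and activated at the cell surface by Mmp14, had lower levels in melanoma than in lung. It was 2.74 to 4.65 CPM (median 3.97) in melanoma, 6.01 to 9.505 CPM (median 7.59) in breast and 6.46 to 34.1 CPM (median 9.33) in lung. All melanoma libraries were below all others, and breast and lung overlapped. The log2 fold change was -1.93 ± 0.35 (adjusted p = 3.13e-04) for melanoma over lung and -0.995 ± 0.35 (adjusted p = 0.0392) for melanoma over breast. The second call was lost when any 1 of the 12 melanoma and breast libraries was left out (highest adjusted p 0.0786). For breast over lung it was -0.93 ± 0.34 and did not pass (adjusted p = 0.0615), but did without melanoma library 3 or lung library 8, 10 or 13. Mmp2 was highest in lung libraries 11 and 7, at 34.1 and 22.3 CPM, where the summed fibroblast markers (7 genes) were 1600.1 and 885 CPM, against 214 to 367 CPM in the other 4. Over all lung libraries that sum was 214 to 1600.1 CPM, over melanoma 82.0 to 189 CPM and over breast 231 to 305 CPM. Its part in the Mmp2 level was not tested.

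Mmp14, the membrane-type MMP that activates pro-MMP2 on the cell surface, had its highest level in breast. The breast libraries held 252 to 485 CPM (median 354), the melanoma libraries 63.7 to 214 CPM (median 127) and the lung libraries 56.1 to 112 CPM (median 73.2). Breast lay above all other libraries, with a log2 fold change of 2.22 ± 0.28 (adjusted p = 8.74e-06) over lung, and melanoma was lower than breast, with -1.47 ± 0.27 (adjusted p = 3.26e-04). Melanoma and lung overlapped, and their difference of 0.75 ± 0.27 was just outside the threshold (adjusted p = 0.0517). It passed without melanoma library 4, 5 or 6 or lung library 7. The 6 melanoma libraries, 1 to 6, held 214, 180.5, 148, 107, 74.7 and 63.7 CPM. Summed melanocyte markers were 15422, 13831, 23485, 7395, 4709 and 3822 CPM in the same libraries. Libraries 1 to 3 were thus the higher ones in both. The same libraries had the lower sums of neuron markers, at 3361, 3838 and 3018 CPM against 5239.8 to 5940.4 CPM in 4 to 6, and the lower slopes against transcript length, at 0.0534, 0.0675 and -0.192 against 0.154 to 0.162. The part of tumour RNA, neuron RNA or RNA quality in the Mmp14 level was not tested.

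Timp1 is the inducible inhibitor, which binds pro-MMP9 and holds Mmp14 poorly. Its levels ranked lung, breast, melanoma: 31.6 to 95.2 CPM (median 62.7) in lung, 12.7 to 27.4 CPM (median 19.7) in breast and 1.82 to 14.5 CPM (median 7.08) in melanoma. All lung libraries were above all others, whereas breast and melanoma overlapped through melanoma library 3 (14.5 CPM) and breast library 15 (12.7 CPM). The log2 fold change was -3.10 ± 0.43 (adjusted p = 1.70e-05) for melanoma over lung, -1.64 ± 0.41 (adjusted p = 0.00687) for breast over lung and -1.46 ± 0.42 (adjusted p = 0.0115) for melanoma over breast. Melanoma libraries 1 to 3 held 10.1, 10.1 and 14.5 CPM, and libraries 4 to 6 held 4.09, 2.32 and 1.82 CPM, the same division as for Mmp14, the melanocyte and neuron markers and the length slopes, whose part in the Timp1 level was not tested. Timp1 lies within Syn1 on the opposite strand, with 0 of its 888 exon bases shared in GENCODE M21.

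Timp2, which inhibits MMPs and also docks pro-MMP2 onto Mmp14, was the most abundant inhibitor in every library, with 61.1% to 86.9% of the summed Timp level per kilobase. It was 645 to 836 CPM (median 803) in lung, 296 to 465.6 CPM (median 424) in melanoma and 317 to 378 CPM (median 362) in breast. Lung was above both others in every library, and melanoma and breast overlapped. Melanoma over lung was -0.93 ± 0.11 (adjusted p = 3.93e-06) and breast over lung -1.11 ± 0.11 (adjusted p = 6.94e-07). Melanoma over breast was 0.18 ± 0.11 and did not pass (adjusted p = 0.243). Melanoma libraries 1 to 3 held 359, 403 and 296 CPM of Timp2, and libraries 4 to 6 held 446, 465.6 and 450 CPM. This is the division seen for Mmp14 and Timp1, in the reverse direction. The part of tumour RNA, neuron RNA or RNA quality in the Timp2 level was not tested.

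Timp3 binds to the extracellular matrix and inhibits ADAM proteases such as Adam17 as well as MMPs. Its levels followed the order of Timp2, with 173 to 209 CPM (median 187) in lung, 64.7 to 133 CPM (median 104) in melanoma and 63.1 to 105 CPM (median 73.6) in breast. Again all lung libraries were above all others, and melanoma and breast overlapped. The log2 fold change was -0.88 ± 0.17 (adjusted p = 4.68e-04) for melanoma over lung, -1.21 ± 0.17 (adjusted p = 2.73e-05) for breast over lung and 0.33 ± 0.17 for melanoma over breast, which did not pass (adjusted p = 0.153). Without melanoma library 3, Timp2 and Timp3 passed there too, at 0.31 and 0.48 (adjusted p = 0.0148 and 0.0116), when 8078 genes were called in place of 4966. Within melanoma, Timp3 divided as Timp2 did, with 82.7, 93.0 and 64.7 CPM in libraries 1 to 3 and 115, 126 and 133 CPM in 4 to 6. The part of tumour RNA, neuron RNA or RNA quality in the Timp3 level was not tested. Timp3 shares 1733 of its 8144 exon bases with Syn3 on the opposite strand, and the strand setting of the counting was not given, so reads of these shared bases cannot be told apart. Syn3 itself was 6.54 ± 2.35, 5.97 ± 1.87 and 4.82 ± 1.48 CPM in melanoma, lung and breast and was called in no comparison.

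**Figure D3:**
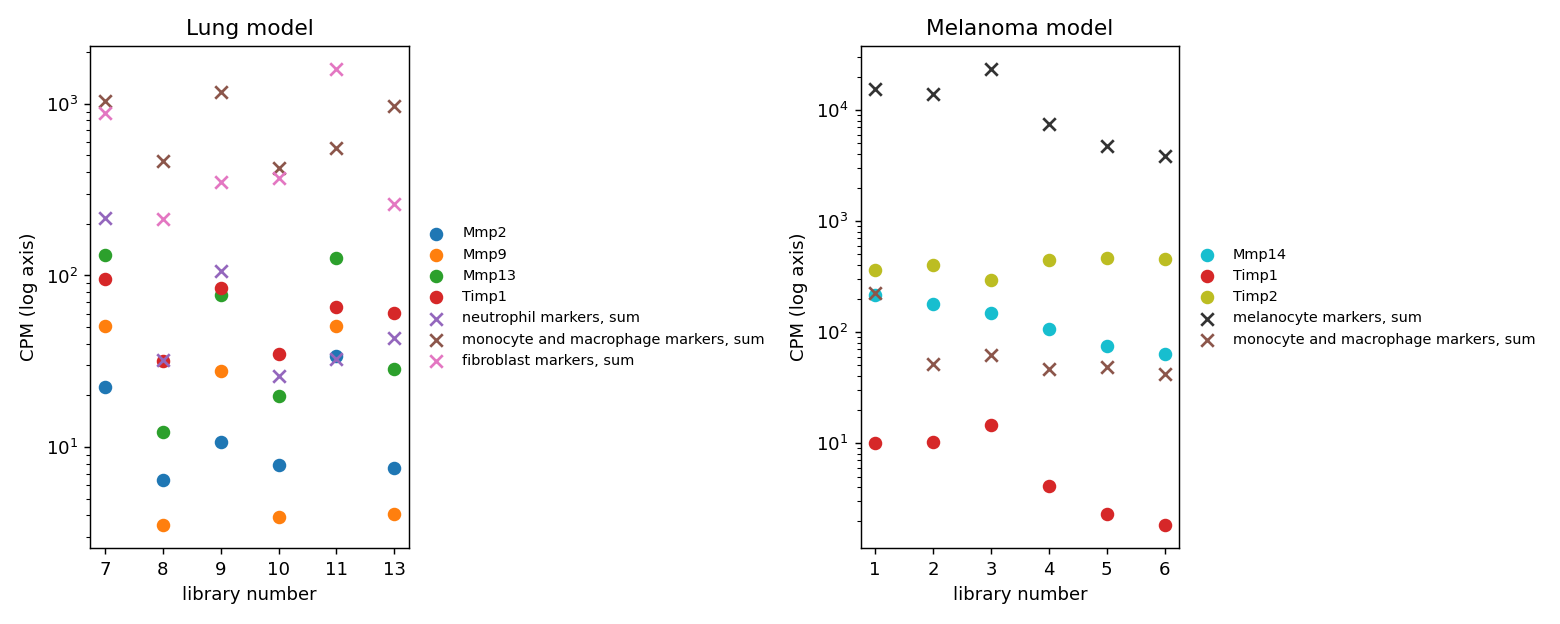
Levels in CPM (log axis) in each lung library (left) and each melanoma library (right), with summed markers of other cell types as crosses; libraries are named by number and have no order. Mmp9 and Mmp13 are high in lung libraries 7, 9 and 11, and Mmp14 and Timp1 are higher in melanoma libraries 1 to 3 than in 4 to 6. Timp2 is lower in melanoma libraries 1 to 3 than in 4 to 6.

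Within the lung model, libraries 7, 9 and 11 were the highest 3 for Mmp2, Mmp9, Mmp13, Mmp14 and Timp1, though not for Mmp3, Mmp12, Timp2 or Timp3. In libraries 7, 8, 9, 10, 11 and 13, neutrophil markers summed to 216, 32.3, 106, 26.1, 32.6 and 43.5 CPM. Monocyte and macrophage markers summed to 1038, 463, 1169, 422, 553 and 967 CPM in the same order, and epithelial markers to 1096, 915, 1318, 309.6, 686 and 591 CPM. Fibroblast markers summed to 885, 214, 349, 367, 1600.1 and 261 CPM in this order too. The slopes of log2 CPM against transcript length were -0.107, -0.102 and -0.0600 in libraries 7, 9 and 11, and 0.0905, 0.119 and -0.00759 in 8, 10 and 13. The part of cell types or of RNA quality in the spread of the lung libraries was not tested. No direct measure of RNA quality was used here, so what the slope reflects is not known.

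To compare genes with each other, CPM were divided by the length of the union of a gene's exons. This union can be longer than the transcripts in use. It was 7.237 kb for Mmp12, against 1.801, 2.024 and 2.673 kb for Mmp3, Mmp1a and Mmp13. The level of Mmp12 per kilobase, and its part in the sums below, may therefore be too low. Per kilobase and among the 7 MMPs of the set, Mmp14 had the highest mean in melanoma (22.01 ± 10.0 CPM per kb, SD, n = 6), Mmp13 in lung (24.7 ± 20.2) and Mmp3 in breast (557 ± 336). In lung, Mmp13 and Mmp14 (13.1 ± 3.46) were within each other's spread. Mmp13 led in lung libraries 7, 9 and 11 only. In libraries 8, 10 and 13 Mmp14 led, with 49.9%, 44.2% and 39.9% of the summed level of the 7 MMPs against 24.2%, 31.6% and 35.8% for Mmp13. Mmp14 made up 84.9% to 93.9% of the summed level of the 7 MMPs in melanoma, 16.7% to 49.9% in lung and 5.81% to 22.8% in breast. Mmp3 made up 66.7% to 91.0% in breast, 0.268% to 3.26% in melanoma and 1.19% to 4.11% in lung. Timp2 stood above Timp3 and Timp1 in each model, at 103 ± 16.8, 197 ± 19.97 and 91.2 ± 6.18 CPM per kb in melanoma, lung and breast.

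The 7 MMPs together reached 12.6 to 38.6 CPM per kb in melanoma, 18.8 to 93.8 in lung and 185 to 1185 in breast. The 3 Timps together reached 100.1 to 138 CPM per kb in melanoma, 235 to 336 in lung and 113 to 131 in breast. The ratio of the MMP sum to the Timp sum was 0.0940 to 0.340 in melanoma, 0.0802 to 0.350 in lung and 1.41 to 9.46 in breast. Within melanoma it was 0.340, 0.256 and 0.267 in libraries 1 to 3 and 0.154, 0.105 and 0.0940 in 4 to 6. Breast was the model in which all 6 libraries held more MMP than Timp transcript, and Mmp3 made up most of that sum. These are transcript levels, and say nothing of the share of MMP proteins that is active or bound by a Timp. Since the genes were chosen with these levels known, no test was made of the sums.

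**Figure D4:**
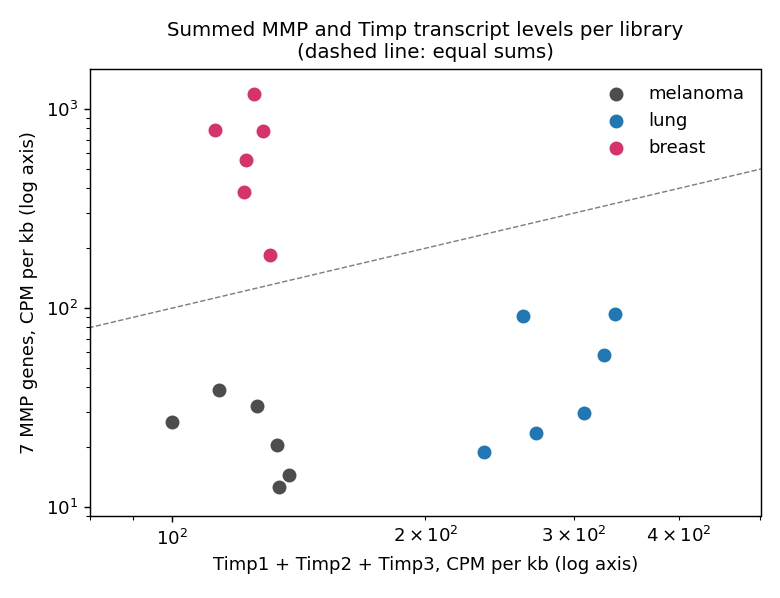
Summed level of the 7 MMPs (vertical) against the 3 Timps (horizontal) in each library, both in CPM per kb on log axes, with a dashed line where both are equal. The 6 breast libraries lie above the line, at ratios of 1.41 to 9.46, and the melanoma and lung libraries below it, the lung ones further to the right.

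Other MMPs were described from a list of 16 family members, of which 12 passed the count filter. In melanoma against lung 6 of the 12 were lower and none higher, against 14.7% and 8.51% of all genes. In melanoma against breast again 6 were lower and none higher, against 19.2% and 9.76%. In breast against lung 3 were higher (Mmp10, Mmp1b and Mmp8) and 2 lower (Mmp11 and Mmp28), against 11.2% and 7.16% of all genes. Mmp17, a membrane-type MMP, was called in no comparison and, at 22.5 ± 7.94, 23.7 ± 4.06 and 18.1 ± 4.04 CPM per kb in melanoma, lung and breast, stood beside Mmp14 in melanoma and Mmp13 in lung. The median log2 fold change was -0.90, -0.13 and -0.36 in melanoma over lung, breast over lung and melanoma over breast. Mmp10, stromelysin-2, lies next to Mmp1a and was 48.5 ± 16.8 CPM in breast, 3.20 ± 0.733 CPM in lung and 4 reads over all melanoma libraries. It was higher in breast than in lung, with a log2 fold change of 3.91 ± 0.27 (adjusted p = 2.80e-09). Mmp8, the neutrophil collagenase, was 4.55 ± 1.30 CPM in breast and 1.32 ± 1.09 CPM in lung.

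Along chromosome 9 the order in the RefSeq annotation of GRCm38.p6 is Mmp13, Mmp12, Mmp1b, Mmp3, Mmp1a, Mmp10, Mmp8, Mmp27, Mmp20 and Mmp7. The genes from Mmp12 to Mmp27 had their highest means in breast, while Mmp13 at one end had its highest mean in lung. Mmp12, next to Mmp13, was not called between breast and lung. Mmp27 was low, with 37 reads in breast, 7 in lung and 3 in melanoma. At the other end Mmp20 had no read and Mmp7 had 2 reads over all libraries. The division of reads between Mmp1b and Mmp1a is uncertain. Mmp1b had 7 reads in melanoma, 2 in lung and 261 in breast. The deposited CPM table has a row MMP1, which equalled the reads of Mmp1b in 18 of 18 libraries (270 reads), and not those of Mmp1a (1325 reads). Values of Mmp1a here come from the count table. Both the Mmp10 and the Mmp1b promoter window hold TGANTCA and TATAAA, as do those of the printed cluster genes.

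**Figure D5:**
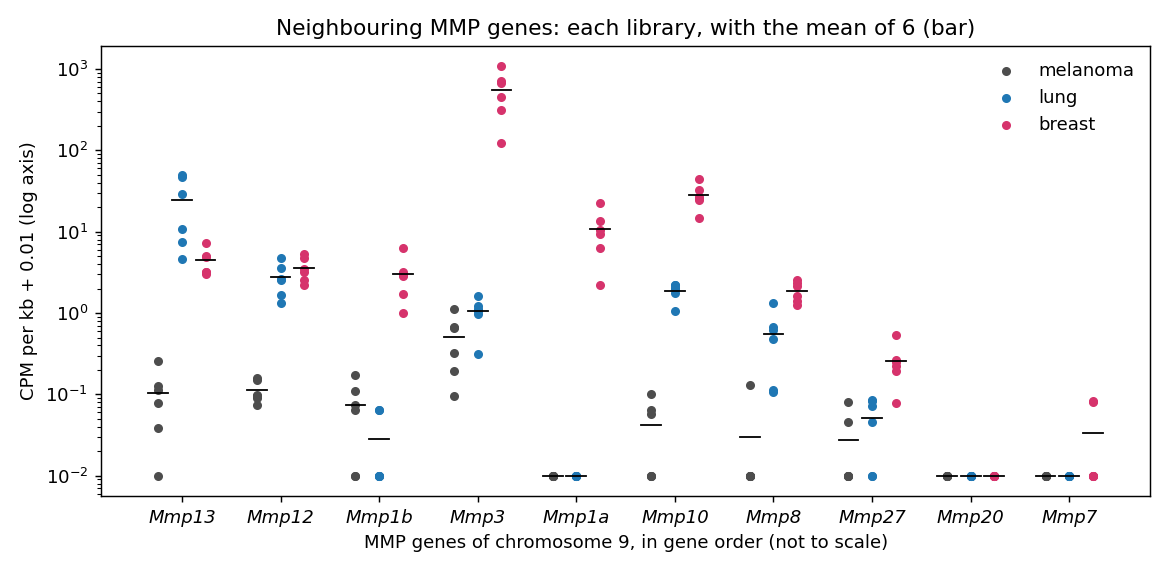
Level of the 10 MMP genes of the chromosome 9 cluster in each library, in CPM per kb plus 0.01 on a log axis, with genes in chromosomal order but not to scale, and bars for the mean of 6. From Mmp12 to Mmp27 the mean of breast is highest, at Mmp13 that of lung is highest, and Mmp20 has no read.

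Among 4 other inhibitors 3 were tested, and values in brackets here and for the lists after it are log2 fold changes of the comparison named. Reck, a membrane-anchored inhibitor, was higher in melanoma, with 15.8 ± 1.29 CPM against 8.92 ± 2.12 CPM in lung (0.82 ± 0.17, adjusted p = 9.50e-04) and 9.86 ± 2.25 CPM in breast (0.67 ± 0.17, adjusted p = 0.00459). A2m, a plasma trap for proteases, was lower in melanoma than in lung (-3.10 ± 0.23, adjusted p = 4.57e-09) and in breast (-3.12 ± 0.23, adjusted p = 4.66e-09). Timp4 was lower in melanoma than in lung (-0.63 ± 0.20, adjusted p = 0.0267) and was called in neither other comparison. None of the 3 was called between breast and lung, where 18.3% of all genes were.

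Activators and partners of MMPs numbered 12, with 11 tested. In melanoma 6 were lower than in lung (14.7% of all genes) and 6 lower than in breast (19.2%), none higher. In breast against lung 1 was higher and 1 lower of the 11, near the 11.2% and 7.16% of all genes. Plau, the urokinase that generates plasmin and through it active MMPs, was 10.0 ± 7.37, 25.7 ± 10.1 and 305 ± 58.7 CPM in melanoma, lung and breast, the sole activator called higher in breast than in lung (3.57 ± 0.36, adjusted p = 5.82e-07). Plat, the tissue plasminogen activator, was the sole one called lower in breast than in lung (-0.74 ± 0.17, adjusted p = 0.00348). The urokinase receptor gene Plaur was 3.31 ± 2.34, 74.6 ± 31.0 and 60.3 ± 10.4 CPM, lower in melanoma than in lung (-4.48 ± 0.39, adjusted p = 4.94e-08). Furin, which activates pro-MMP14 inside the cell, was lower in melanoma than in lung (-1.42 ± 0.19, adjusted p = 1.39e-05). Lcn2, which binds Mmp9 and shields it from degradation, was lower in melanoma than in lung (-3.65 ± 0.43, adjusted p = 2.33e-06). Median log2 fold changes of the 11 were -1.35, -0.03 and -0.76.

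Timp3 also holds ADAM and ADAMTS proteases, of which all 12 listed were tested. In melanoma against lung 2 were higher and 5 lower, in breast against lung 5 higher and 2 lower, and in melanoma against breast 2 higher and 5 lower. The shares of all genes higher and lower were 8.51% and 14.7%, 11.2% and 7.16%, and 9.76% and 19.2% in the same order. Adam17, which sheds tumour necrosis factor, was higher in breast than in lung (1.13 ± 0.17, adjusted p = 7.18e-05), where Timp3 was lower. Adam8, a leukocyte ADAM, was 2.67 ± 0.803, 28.2 ± 16.2 and 82.2 ± 17.3 CPM in melanoma, lung and breast. The aggrecanase Adamts5 was lower in breast than in lung (-2.28 ± 0.21, adjusted p = 1.22e-07).

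Of 18 substrates, all tested, 11 were lower in melanoma than in lung and none higher. In breast against lung 4 were higher (Lamb1, Lamc1, Col4a1 and Col4a2, chains of laminin and type IV collagen) and 7 lower, among them the fibrillar collagens Col1a1, Col1a2 and Col3a1. In melanoma against breast 7 were lower and none higher. Of all genes, 14.7% were lower in melanoma than in lung and 19.2% lower than in breast. In breast against lung, 11.2% of all genes were higher and 7.16% lower. Lamb1 was 289 ± 87.7 CPM in breast and 76.2 ± 8.42 CPM in lung (1.92 ± 0.23, adjusted p = 4.13e-06). Fn1, fibronectin, was 102 ± 56.0 CPM in breast and 1532 ± 553 CPM in lung (-3.91 ± 0.41, adjusted p = 8.57e-07). Acan, aggrecan of perineuronal nets, was lower in breast than in lung (-3.43 ± 0.27, adjusted p = 1.72e-08) and lower in melanoma than in lung (-2.89 ± 0.26, adjusted p = 6.75e-08). Cdh1, E-cadherin of epithelial cells and itself an epithelial marker, was 71.6 ± 24.5 CPM in lung and 2.75 ± 0.613 CPM in breast. Tnc, tenascin-C, was 7.44 ± 3.17, 124 ± 34.1 and 70.6 ± 23.4 CPM in melanoma, lung and breast, and was lower in melanoma than in lung (-4.06 ± 0.34, adjusted p = 2.43e-08). Median log2 fold changes of the 18 were -2.26, -0.21 and -0.45.

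Cytokines known to induce MMP genes (10 listed, 9 tested) were all called lower in melanoma than in lung, and 7 of the 9 lower than in breast, with medians of -2.92 and -2.89. Between breast and lung, Tgfb1 and Tgfb2 were lower in breast and none was higher. Il1b was 0.644 ± 0.442, 53.1 ± 57.1 and 67.3 ± 12.9 CPM in melanoma, lung and breast. Tgfb1 was 11.98 ± 3.33, 91.2 ± 17.5 and 45.2 ± 7.23 CPM, so that it ranked as Timp1 did. Of 17 transcription factors known at MMP promoters, 12 were lower and 1 (Ets1) higher in melanoma than in lung, 11 lower and none higher than in breast, and 6 higher and 2 lower in breast than in lung. Beside the cytokines and these factors, 14.7% of all genes were lower and 8.51% higher in melanoma than in lung. Against breast, 19.2% were lower and 9.76% higher in melanoma. In breast against lung, 11.2% were higher and 7.16% lower. Fosl1, an AP-1 subunit, ranked as Mmp3 did between breast and the others: it was 0.310 ± 0.370, 20.9 ± 5.74 and 92.7 ± 21.4 CPM, with a log2 fold change of 2.15 ± 0.29 (adjusted p = 2.40e-05) for breast over lung and -8.11 ± 0.43 (adjusted p = 1.01e-10) for melanoma over breast. Unlike Mmp3, Fosl1 was called between melanoma and lung (-5.96 ± 0.42, adjusted p = 2.88e-09). Ets1 was 117 ± 46.7, 28.7 ± 3.46 and 145 ± 30.8 CPM, higher in both melanoma and breast than in lung. Junb, another AP-1 subunit, was lower in melanoma than in lung (-2.67 ± 0.20, adjusted p = 7.98e-09). Jun, a partner of Fosl1, was higher in breast than in lung (0.88 ± 0.13, adjusted p = 6.13e-05).

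Genes with the most similar pattern were named as the 3 with the smallest root mean square difference in centred log2 CPM over the 18 libraries, among 17164 genes. For Mmp1a these were Rhox2d (0.309), Dppa4 (0.321) and Magea8 (0.343), which like Mmp1a had no read in melanoma and lung. For Mmp3 they were Gm364 (0.896), 4930550L24Rik (0.941) and Rhox5 (1.08). Mmp13 was nearest to Arg1 (0.890), a macrophage arginase, S100a6 (0.983) and Klra4 (1.01), and Mmp9 to Acp5 (0.685), the tartrate-resistant acid phosphatase of osteoclasts and macrophages, Srgn (0.766) and Cd200r4 (0.782). Twist1 (0.514) and Trem1 (0.522) were among the 3 for Mmp12. For Mmp2 the nearest were Col6a3 (0.402), Col5a2 (0.423) and Lum (0.473), all matrix genes of connective tissue, and for Mmp14 Dcps (0.322), Slc16a3 (0.376) and Arhgap9 (0.382). Timp1 was nearest to Anxa2 (0.430), Pla2g4a (0.481) and Tnfrsf12a (0.502), Timp2 to Dpy19l1 (0.141), Arhgap42 (0.166) and Dok4 (0.176), and Timp3 to Fam84a (0.175), Itgb4 (0.186) and Fam189b (0.197). Distances grow with a gene's own spread, which was 4.50 for Mmp3 and 0.512 for Timp2, so they are not comparable between genes of the set.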

How the data were processed

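Poly(A)+ RNA of 18 mouse brains went into directional libraries, per the labels' protocols. The deposited count table holds raw read counts per Ensembl gene, and the deposited CPM table gives the authors' CPM for 16925 upper-case symbols. The submitters' processing notes name bcl2fastq and the build GRCm39. For the aligner, the counter, its annotation and whether strand was used, the entry is the same: not given in the sources used here. Whole reads were recovered from 100% of the deposited CPM values in the 16925 rows (tolerance 0.01). In the 15366 rows matched to the count table, 99.8% of them equalled the counts.

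Symbols and exon lengths came from GENCODE M21 by gene ID (52083 of 55416 IDs, 99.8% of reads). The fit used edgeR 4.0.16 under R 4.3.3 with robust quasi-likelihood, TMM factors and filterByExpr (17174 genes, 99.8% of reads), with 1 coefficient per model over all 18 libraries, 3 contrasts and 1 test of any difference. All 10 genes passed the filter, so the planned exact permutation test of genes under the filter had none to test. No 2 libraries were repeats of each other (smallest chi-square per degree of freedom within a model 2.82). Number 12 was not analysed here. On simulated data with 200 changed genes among 17174, 2-fold changes were found in 64.5%, 63.0% and 54.0% (11, 5 and 3 false calls) and 4-fold changes in 97.0%, 96.0% and 98.5% (9, 4 and 8 false calls) for melanoma and lung, for breast and lung and for melanoma and breast.

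The 10 genes, the lists of other genes and the markers were chosen with earlier results of these data known. Named were the 10 genes, the 2 called genes with the smallest p each way per list and comparison (a part is described), the genes that hold a Timp gene, Mmp1b, and the 3 most similar patterns for each, of which 1 is not reported here. Furin, Lcn2, Fn1, Jun, Mmp8 and Mmp17 were chosen with their values known. Alternatives were other scalings, filters and tests (DESeq2 1.42.0, limma 3.58.1 with voom or on the deposited CPM), a test against 1.5-fold, fits of 12 libraries, and libraries left out. A fit of the reads recovered from CPM was added after seeing the data.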

Additional observations from a re-analysis of the deposited data

How the results depend on the processing

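Of the 893 values that the alternatives gave for the 10 genes in the 3 comparisons, 851 kept direction and side of the threshold, 18 passed it, 19 lost it and 5 turned sign. The 5 all concern Mmp9 in breast over lung, never called: 0.71 with limma voom, 0.60 and 0.71 with limma on log2 of the deposited CPM plus 1 or plus 0.1, and 0.23 and 0.20 without lung replicate 7 or 11, against -0.15 with all libraries (the fits that leave out 1 library range from -0.38 to 0.23). In a test against 1.5-fold, 1897, 1053 and 2218 genes were called for melanoma and lung, for breast and lung and for melanoma and breast, in place of 3978, 3149 and 4966. That test and the fits of 12 libraries gave no value for any difference. With 1 library left out in turn, the calls over all genes ranged from 3495 to 4623, from 2575 to 4113, from 4520 to 8078 (highest without melanoma replicate 3) and from 5653 to 8720 for any difference, and those among the 10 genes from 7 to 8, 7 to 8, 7 to 9 and 10 to 10.

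Calls that depended on the setting were few. Mmp14 in melanoma over lung passed with DESeq2 size factors (adjusted p = 0.0429), upper quartile factors (0.0463), every gene with a read (0.0476), DESeq2 (0.0210) and the recovered reads (0.0474). Mmp2 in breast over lung passed with upper quartile factors (0.0485), DESeq2 (0.0309) and the recovered reads (0.0467). Mmp2 in melanoma over breast was lost with every gene with a read (0.0585), limma on the deposited CPM (0.0734 and 0.0530), the 1.5-fold test (0.274) and without the 3 libraries poor in long transcripts (0.0876). Timp3 in melanoma over lung (0.0981) and Timp1 in melanoma over breast (0.0606) were lost in the 1.5-fold test. Without the 3 libraries, 7, 7 and 7 of the 10 genes were called, and 5845, 4357 and 5955 of all genes. The causes were not tested.

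No paired analysis was possible because the library numbers do not repeat between models. Floors of 3 reads cover counting error only, and levels under 3 reads in a library cannot be told from 0.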
